A study of Mus musculus with 8 samples.

Results

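Cd4, Cd8a, Cd8b1 and Zbtb7b were followed in T cells from mouse bone marrow, across the cells of a mouse that can express the Runx1::Runx1t1 fusion of acute myeloid leukemia and of its control. These are 4 of the 32285 genes in the count matrices, chosen by their symbols, and they were read in the 35931 of 53033 kept cells in which both a TRA and a TRB chain of the T cell receptor (TCR) were sequenced. Single-cell RNA sequencing used 10x Genomics 5′ chemistry, which counts molecules by unique molecular identifiers (UMIs), with a companion TCR library from the same cells. The Runx1::Runx1t1 group consisted of Runx1Runx1t1/+; Mx1-Cre mice and the control group of Runx1Runx1t1/+ littermates without Mx1-Cre, matched for sex, on the C57BL/6 strain. The labels call the control genotype WT, and the age of the mice is not given. To induce Cre, Poly(I:C) was injected 4 times at 5 mg/kg, and tissue was taken 4 weeks later. Mx1-Cre responds to interferon, and so acts in blood cells and in many other cells. CD3+ cells that were alive and lacked mCherry, which reports the fusion, were sorted in both groups after T cells had been enriched by depletion of other cells. Each group had 2 pools of 2 mice, referred to here as pools 1 and 2. The pool was the replicate (n = 2 per group), and mice mixed in a pool could not be separated.

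Cd4 encodes the co-receptor that binds MHC class II on helper and regulatory T cells. Cd8a and Cd8b1 encode the 2 chains of CD8, which binds MHC class I: the CD8αβ heterodimer marks conventional cytotoxic T cells, and the CD8αα homodimer occurs on some innate-like and activated cells. Zbtb7b encodes ThPOK, the zinc finger factor that commits thymocytes to the helper lineage and represses cytotoxic lineage genes, while Runx3, with Runx1 and their partner Cbfb, silences Cd4 and Zbtb7b in the cytotoxic lineage. Invariant natural killer T (NKT) cells recognize CD1d instead of MHC class I or II, need ThPOK for their maturation, and in the mouse carry Cd4 or no co-receptor.

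The genes lie on 2 chromosomes of GRCm38 (GENCODE M21). Cd8b1 (chr6:71322788-71337494) and Cd8a (chr6:71373427-71379173) are both on the plus strand with 35932 bases between them. Cd4 (chr6:124864692-124888221) and Zbtb7b (chr3:89377644-89394776) are on the minus strand.

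Each cell was placed in 1 of 6 patterns by which of the 3 co-receptor transcripts gave at least 1 UMI. Of the 35931 cells, 16577 (46.1%) had Cd8a and Cd8b1 without Cd4 (Cd8ab), 5813 (16.2%) had Cd4 only, 2887 (8.03%) had Cd8b1 only, 1869 (5.20%) had Cd8a only, and 1173 (3.26%) had Cd4 with a Cd8 transcript (both). The remaining 7612 (21.2%) had no co-receptor UMI. A clonotype was the set of cells of a pool with the same nucleotide sequence of the third complementarity-determining region (CDR3) in their leading TRA and TRB chains, whose cells are taken to descend from 1 T cell. The CDR3 of 3 expanded clonotypes are shown because most of their cells held the same pattern. The first was a Cd4 clonotype of 136 cells in pool 1 of the Runx1::Runx1t1 group (TRAV14-2 with TRAJ9, TRBV10 with TRBJ1-1), with 121 cells of Cd4 only, 6 of both, 9 with no co-receptor UMI and none in the other patterns.
Cd4 clonotype TRA CDR3: tgtgcagcagtgggctacaaacttaccttc
Cd4 clonotype TRB CDR3: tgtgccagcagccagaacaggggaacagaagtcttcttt
The second, in pool 2 of the Runx1::Runx1t1 group, was the clonotype with the most cells in the series, 1106 cells or 12.6% of the paired cells of its pool (TRAV6-6 with TRAJ48, TRBV1 with TRBJ2-7). Of these, 1056 were Cd8ab, 14 Cd8a only, 23 Cd8b1 only and 13 both.
Cd8 clonotype TRA CDR3: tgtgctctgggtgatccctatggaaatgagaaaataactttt
Cd8 clonotype TRB CDR3: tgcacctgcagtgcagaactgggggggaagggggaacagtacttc
The third was in pool 2 of the control group (TRAV12D-3 with TRAJ7, TRBV13-3 with TRBJ2-7), where 37 of 40 cells had no co-receptor UMI, 1 was Cd8a only and 2 were Cd8b1 only.
Clonotype without co-receptor UMIs, TRA CDR3: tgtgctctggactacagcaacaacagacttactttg
Clonotype without co-receptor UMIs, TRB CDR3: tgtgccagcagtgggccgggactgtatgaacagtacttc

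Libraries held 90958101 to 102883449 UMIs over 13633 to 14664 barcodes, with medians of 6239 to 6368 UMIs per cell. Any 2 libraries shared 256 to 306 barcodes. At least 2 of Cd3d, Cd3e, Cd3g and Trac were found in 99.4% to 99.8% of paired cells per pool. Signs of other cells differed between the groups. At least 2 of 5 myeloid markers were found in 0.0512% and 0.0797% of paired cells of the Runx1::Runx1t1 group and in 3.98% and 1.18% of those of the control group. At least 1 of the progenitor and mast cell markers Cd34, Kit, Cpa3 and Mcpt8 was found in 12.2% and 15.1% against 1.15% and 2.53%. Their part in the results was not tested. Free RNA gave few co-receptor UMIs in cells with markers of other lineages, most of which came from the control pools. Among 63 kept cells with B cell markers (median 3775 UMIs), 1 had a Cd4 UMI and 0 had a Cd8 UMI, which allows a share of up to 5.75% (95% Wilson interval). Among 387 cells with myeloid markers, which are deeper (median 11707 UMIs), 1.29% had Cd4 and 6.20% had Cd8a or Cd8b1. At 2000 UMIs per cell these shares were 0 of 318 for Cd4 and 0.943% for Cd8. With all UMIs, Cd4 was found in 1 of 23 and 1 of 20 myeloid marker cells of the Runx1::Runx1t1 pools, and in 1 of 194 and 2 of 150 of the control pools. Free RNA in the Runx1::Runx1t1 pools was thus measured in few cells. Zbtb7b was found in 25.1% of the myeloid marker cells (5.35% at 2000 UMIs), so a Zbtb7b UMI does not by itself mark a T cell.

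Cd4 only cells made up a larger share of the paired cells in the Runx1::Runx1t1 group, and cells with no co-receptor UMI a smaller one. Cd4 only cells were 21.9% and 21.0% of paired cells in Runx1::Runx1t1 pools 1 and 2, and 11.4% and 9.62% in control pools 1 and 2. The means were 21.5% ± 0.665 against 10.5% ± 1.29 (SD, n = 2), a difference of 10.9 percentage points. Both pools of the Runx1::Runx1t1 group lay above both control pools. Cells with no co-receptor UMI were 17.5% and 10.5% against 30.2% and 27.2%, a difference of -14.7 points that no pool overlapped. Cells called both were 4.21% and 5.35% against 1.58% and 1.77%, again without overlap. Cd8ab cells were 45.1% and 54.9% against 39.5% and 44.9%, so that pool 1 of the Runx1::Runx1t1 group lay next to control pool 2. The difference of 7.82 points was 12.7 without pool 1 of the Runx1::Runx1t1 group, 2.95 without pool 2, and 4.89 without the clonotype of 1106 cells. Cd8a only cells were 3.42% and 2.78% against 6.85% and 7.96%, and Cd8b1 only cells 7.83% and 5.48% against 10.4% and 8.52%. In the two-sided exact permutation test of 2 against 2 pools, each of the 6 differences had p = 0.333 (adjusted 0.333), the smallest the design allows.

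The patterns depend on depth, since a cell with few UMIs can miss a transcript it holds. Each cell was therefore thinned to 2000 UMIs. Of the Cd4 only cells, 60.6% stayed in the pattern and 39.4% moved to no co-receptor UMI. Of the Cd8ab cells, 48.8% stayed, 31.7% became Cd8b1 only, 10.4% Cd8a only and 9.11% lost both transcripts. At 2000 UMIs the single-chain Cd8 patterns thus took in many cells that also held the other chain. Before thinning, the median depth was 7464 UMIs in Cd8a only, 6320 in Cd8b1 only and 7272 in Cd8ab cells. After thinning, Cd4 only cells were 14.3% and 14.2% in the Runx1::Runx1t1 pools and 7.31% and 5.83% in the control pools. Cells with no co-receptor UMI were 36.1% and 26% against 46.4% and 43.1%. Both patterns again did not overlap between the groups. The Cd8ab shares did overlap, at 20.7% and 30.9% against 18.2% and 22.1%. The Cd8a only shares also overlapped, at 6.52% and 8.17% against 6.57% and 7.80%, and their difference turned to 0.158 points. The thinned Cd8a only pattern held 807 cells of the full-depth pattern and 1716 cells that had been Cd8ab. The thinned shares thus describe other cells and cannot decide whether the lower share in the Runx1::Runx1t1 group depended on depth. Cells of any Cd8 pattern numbered 2.57 and 3 per Cd4 only cell in the Runx1::Runx1t1 pools and 4.96 and 6.38 in the control pools.

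**Figure D1:**
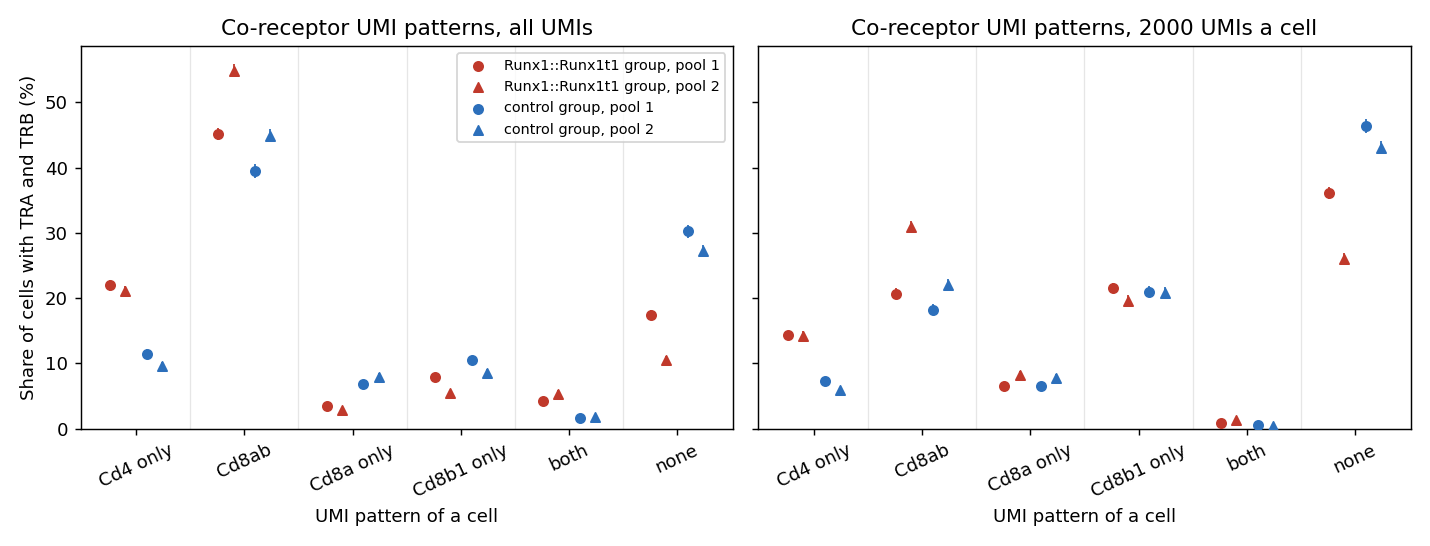
Share of each co-receptor pattern among cells with a TRA and a TRB chain, by pool, in percent, from all UMIs and at 2000 UMIs per cell, with bars for 95% Wilson intervals. Cd4 only cells were 21.9% and 21.0% in the Runx1::Runx1t1 pools against 11.4% and 9.62% in the control pools, and cells with no co-receptor UMI were fewer in both Runx1::Runx1t1 pools at either depth.

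Over all paired cells Cd4 was higher in the Runx1::Runx1t1 group, where Cd4 only cells also had a larger share. No rise of Zbtb7b was detectable there, and Cd8a levels overlapped between the groups although the Cd8ab shares did not. Whether the shares of the patterns set these levels was not tested. The Cd4 level and the Cd4 only share are both read from Cd4 UMIs, so they are not independent. Levels are given as CPM, the UMIs of a gene per 1000000 UMIs of the summed cells. Cd4 was at 85.0 and 92.5 CPM in the Runx1::Runx1t1 pools and 41.6 and 30.8 CPM in the control pools, with both pools of the first above both of the second. In edgeR's quasi-likelihood test on summed counts the log2 fold change was 1.24 (SE 0.13, adjusted p = 0.031), where 2.61% of the 13838 genes tested were called. The call was lost without control pool 1 (adjusted p = 0.098) and without control pool 2 (adjusted p = 0.079). Cd8a was at 225 and 366 CPM against 181 and 232 CPM, and the groups overlapped (log2 fold change 0.45, SE 0.23, adjusted p = 0.28 by edgeR). Without pool 1 of the Runx1::Runx1t1 group it passed, at 0.73 (adjusted p = 0.0076). Cd8b1 was at 520 and 643 CPM against 453 and 507 CPM (log2 fold change 0.22, SE 0.11, adjusted p = 0.30 by edgeR). Zbtb7b was at 9.86 and 11.3 CPM against 10.3 and 10.1 CPM, and no difference was detectable (log2 fold change -0.01, SE 0.10, adjusted p = 0.95 by edgeR). Whether the group difference of Cd4 exceeds that of Zbtb7b was not tested.

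Within the cells of its own pattern, no co-receptor passed the test between the groups. These cells were selected by at least 1 UMI of the gene itself. The test therefore leaves out cells without a UMI of it and cannot show a change in how many cells express it. Cd4 in Cd4 only cells was at 413 and 426 CPM in the Runx1::Runx1t1 pools and 418 and 357 CPM in the control pools (log2 fold change 0.16, SE 0.09, adjusted p = 0.44 by edgeR), where 1.41% of 11256 genes were called, 0.88% higher and 0.533% lower. Library sizes scaled by total UMIs alone, in place of TMM, gave 0.622% higher and 0.577% lower. Cd8a in Cd8ab cells was at 393 and 565 CPM against 372 and 420 CPM (log2 fold change 0.19, SE 0.16, adjusted p = 0.52 by edgeR), in a comparison where 0.0159% of 12578 genes (2 genes) were called. DESeq2 called 588 genes there. Pool 2 of the Runx1::Runx1t1 group set this value: Cd8a was at 0.38 (adjusted p = 0.033) without pool 1 of that group and at -0.02 without pool 2. Cd8b1 in Cd8ab cells was at 862 and 957 CPM against 892 and 922 CPM, and the groups overlapped (log2 fold change -0.07, SE 0.10, adjusted p = 0.72 by edgeR). With total UMI scaling its log2 fold change was 0.0038, of the other sign. The higher Cd4 level over all paired cells went with a larger share of Cd4 only cells. Both are read from the same Cd4 UMIs, so their agreement is not independent support. A difference in Cd4 per Cd4 only cell was not detectable among cells selected by a Cd4 UMI.

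Over the patterns, Zbtb7b was highest in Cd4 only cells, and it was sparse. A Zbtb7b UMI was found in 6.28% to 7.39% of paired cells per pool (2.22% to 2.49% at 2000 UMIs). In Cd4 only cells Zbtb7b was at 27.7 and 34.6 CPM in the Runx1::Runx1t1 pools and 38.9 and 42.1 CPM in the control pools. In Cd8ab cells it was at 1.74, 2.04, 2.37 and 3.03 CPM in the same order. Every pool's Cd4 only cells lay far above its Cd8ab cells. The log2 fold change was 3.68 (SE 0.19, adjusted p = 2.3e-12, edgeR with the pool as a block), a 12.8-fold difference that ranged from 3.55 to 3.96 on the log2 scale over the alternatives. Of 11038 genes tested, 46.3% were called between these patterns, 24.1% higher and 22.2% lower in Cd4 only cells. The share of cells with a Zbtb7b UMI at 2000 UMIs was 5.59% to 8.77% in Cd4 only cells and 0.333% to 0.547% in Cd8ab cells (14.6% to 19.4% and 1.43% to 2.07% with all UMIs). The share in Cd8ab cells was under that of the myeloid marker cells at the same depth, and how much of it is free RNA was not tested.

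The other patterns fell between these ends. Cells with no co-receptor UMI had Zbtb7b at 21.4 and 26.2 CPM in the Runx1::Runx1t1 pools and 16.1 and 16.7 CPM in the control pools, above the Cd8ab cells and below the Cd4 only cells of every pool. By edgeR the log2 fold change was 2.97 (SE 0.19, adjusted p = 1.3e-10) against Cd8ab cells, where 34.6% of genes were called (18.1% higher, 16.5% lower). Against Cd4 only cells it was -0.71 (SE 0.17, adjusted p = 0.0027), where 27.4% were called (14% higher, 13.3% lower). This second call was lost without control pool 1 (adjusted p = 0.060). Cells called both had 18.0, 22.7, 22.3 and 9.94 CPM, higher than Cd8ab cells by 2.87 (SE 0.24, adjusted p = 3.2e-08 by edgeR), where 24.1% of genes were called. Against Cd4 only cells they were lower by -0.81 (SE 0.21, adjusted p = 0.030 by edgeR), where 3.54% were called (2.61% higher, 0.933% lower). That call was lost without any 1 pool (adjusted p 0.064 to 0.16) and without the pool block (adjusted p = 0.14). Cd8a only cells had 3.30, 6.19, 5.84 and 5.92 CPM, higher than Cd8ab cells by 1.19 (SE 0.29, adjusted p = 0.0062 by edgeR, 0.064 without control pool 1), where 16.6% were called (9.13% higher, 7.45% lower). Cd8b1 only cells were at 2.86, 6.23, 4.80 and 7.08 CPM, which overlapped the Cd8a only cells. The order of the means was Cd4 only, no co-receptor UMI, both, and then the 3 Cd8 patterns, with the ranges of the second and the third overlapping.

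TMM scaling set the median gene near 0 in these comparisons. With total UMI scaling the median of all genes lay 0.27 higher on the log2 scale for Cd4 only against Cd8ab cells, 0.19 for both against Cd8ab cells, 0.15 for cells with no co-receptor UMI against Cd8ab cells and -0.13 for them against Cd4 only cells. The changes given here are therefore relative to the median gene. The split of calls moved with it. Between Cd4 only and Cd8ab cells, 56.2% of genes were then higher and 9.02% lower. The Zbtb7b calls between patterns kept their direction and stayed past the threshold under total UMI scaling.

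The groups were compared for Zbtb7b within each pattern. In Cd4 only cells the values above gave a log2 fold change of -0.34 (SE 0.14, adjusted p = 0.28 by edgeR) for Runx1::Runx1t1 against control pools. In Cd8ab cells it was -0.59 (SE 0.24, adjusted p = 0.27 by edgeR). The Runx1::Runx1t1 pools lay below the control pools in each of these patterns, and above them in cells with no co-receptor UMI. How many of all genes separate the pools in this way was not counted. In cells with no co-receptor UMI the log2 fold change was 0.45 (SE 0.12, adjusted p = 0.044 by edgeR), in a comparison where 10.7% of 11642 genes were called, 6.47% higher and 4.27% lower (9.67% and 3.28% with total UMI scaling). This call was lost with DESeq2 (adjusted p = 0.27), with doublets kept (0.056) and without pool 2 of the Runx1::Runx1t1 group (0.16), control pool 1 (0.14) or control pool 2 (0.13). The difference between Cd4 only and Cd8ab cells was not called as differing between the groups (interaction 0.25, SE 0.19, adjusted p = 0.77 by edgeR, where 0.307% of 12722 genes were called).

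**Figure D2:**
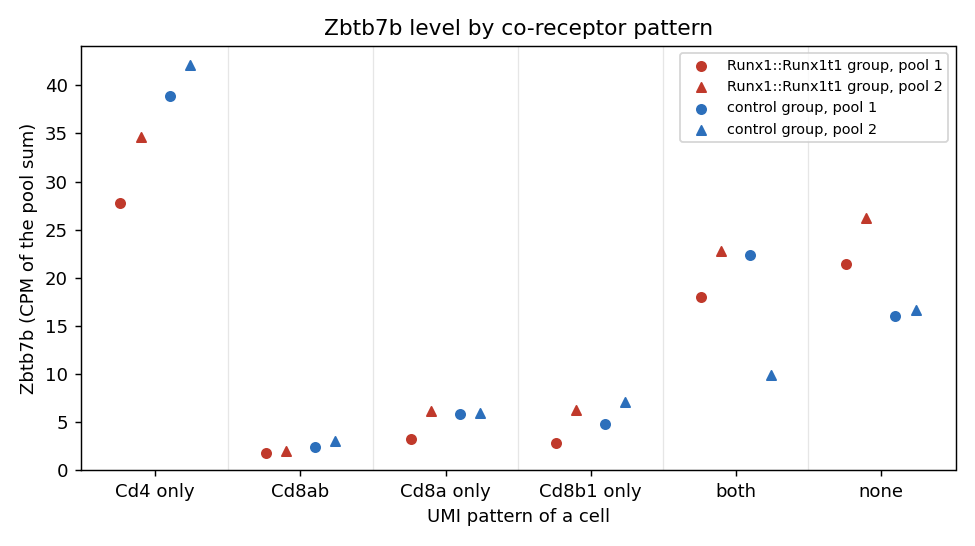
Zbtb7b level in CPM of the summed cells of each of the 6 co-receptor patterns (none: no co-receptor UMI), 1 point per pool. Cd4 only cells lay at 27.7 to 42.1 CPM, cells with no co-receptor UMI at 16.1 to 26.2 CPM and Cd8ab cells at 1.74 to 3.03 CPM.

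Seen from the side of the factor, Zbtb7b UMIs came from different patterns in the 2 groups. Of the 636 and 649 paired cells with a Zbtb7b UMI in the Runx1::Runx1t1 group, 49.1% and 53.5% were Cd4 only and 28.9% and 19.7% had no co-receptor UMI. Of the 531 and 566 such cells of the control group, 32.0% and 29.7% were Cd4 only and 44.4% and 42.4% had no co-receptor UMI. Between 9.91% and 14.8% were Cd8ab cells. The 2 groups did not overlap in the first pair of shares, and these shares move with the sizes of the patterns given above.

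Other genes of the lineage decision were read from 4 lists. Between Cd4 only and Cd8ab cells, 6 of 18 lineage regulators were higher, 10 lower and 2 not called (median log2 fold change -0.20, and 0.01 over all genes). Of all genes 46.3% were called there. Under total UMI scaling 8 were higher and 3 lower. Gata3, which acts upstream of Zbtb7b in the helper choice, was at 139, 117, 126 and 104 CPM in Cd4 only cells and 34.3, 47.5, 31.3 and 33.4 CPM in Cd8ab cells. It was higher by 1.46 (SE 0.09, adjusted p = 2.9e-11 by edgeR). Runx1, a partner of the fusion and known as a repressor of Cd4 in immature thymocytes, was at 153, 157, 156 and 164 CPM against 59.1, 53.0, 57.4 and 57.9 CPM, higher by 1.18 (SE 0.10, adjusted p = 2e-09 by edgeR). With 5′ counting, UMIs of Runx1 in the Cre+ group cannot be told apart from those of the engineered allele. Tox, needed for the CD4 lineage, was higher by 0.85 (SE 0.17, adjusted p = 0.00019 by edgeR, 0.15 without the pool block), and in Cd8ab cells it stood at 191 CPM in pool 2 of the Runx1::Runx1t1 group against 43.7 to 66.2 CPM in the other pools. Satb1, a chromatin organizer that acts on lineage genes, was at 105, 85.0, 145 and 130 CPM against 226, 165, 246 and 200 CPM, lower by -1.15 (SE 0.09, adjusted p = 1.6e-09 by edgeR). Lef1 was lower by -0.82 (SE 0.13, adjusted p = 1.6e-05 by edgeR) and Id3 by -0.59 (SE 0.10, adjusted p = 5.3e-05 by edgeR, 0.098 without the pool block). Runx3, which silences Cd4 and Zbtb7b in cytotoxic cells, was at 126, 156, 86.2 and 94.1 CPM in Cd4 only cells and 111, 149, 87.4 and 96.5 CPM in Cd8ab cells. Its log2 fold change of -0.21 turned to 0.06 with total UMI scaling, so its direction depends on the scaling. The same held for Tcf3, Ikzf1 and Zbtb7a. Runx3 was chosen for its role after its values were seen.

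Called genes of the helper list and of the cytotoxic list each moved in a single direction. All 7 helper genes were higher in Cd4 only than in Cd8ab cells (median 1.88), under either scaling. Tnfrsf4, the costimulatory receptor OX40, was at 465, 482, 261 and 195 CPM against 7.94, 9.02, 2.53 and 2.01 CPM, higher by 5.96 (SE 0.30, adjusted p = 2.3e-12 by edgeR). Cd40lg, through which helper cells activate B cells, was higher by 5.81 (SE 0.24, adjusted p = 1.6e-13 by edgeR) and Icos by 2.05 (SE 0.18, adjusted p = 4.8e-09 by edgeR). Of 12 cytotoxic lineage genes 0 were higher, 9 lower and 3 not called (median -1.03), and total UMI scaling gave 0 higher and 8 lower. Crtam, a surface receptor of cytotoxic cells, was lower by -2.93 (SE 0.18, adjusted p = 2.2e-11 by edgeR), Klrd1, a natural killer receptor chain, by -2.10 (SE 0.18, adjusted p = 2.6e-09) and Prf1, perforin, by -1.78 (SE 0.22, adjusted p = 6.8e-07). Of 12 proximal TCR genes 2 were higher and 3 lower, with 7 not called, and total UMI scaling gave 8 and 1. Of all genes 24.1% were higher and 22.2% lower, and 56.2% and 9.02% with total UMI scaling. Cd247 was higher by 0.53 and Zap70 by 0.35. Cd3d, a chain of the CD3 complex, was lower by -0.31, a call lost with total scaling. Lck, the kinase that the co-receptors carry, was at -0.21 and at 0.07 with total scaling, so that its direction depends on the scaling.

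Cells with no co-receptor UMI held genes of both lineages. Against Cd4 only cells, all 7 helper genes were lower (median -1.04) and 9 of 12 cytotoxic lineage genes higher (median 0.90). Crtam was higher by 2.67, Klrd1 by 2.45 and Prf1 by 0.91, while Tnfrsf4 was lower by -1.60, Cd40lg by -1.04, Icos by -0.86 and Gata3 by -0.42. Against Cd8ab cells 4 of 7 helper genes were higher and 0 lower. Of 18 lineage regulators 4 were higher and 5 lower against Cd4 only cells, where 27.4% of all genes were called. Against Cd8ab cells 3 were higher and 5 lower, where 34.6% of all genes were called. Total UMI scaling gave 2 and 5 against Cd4 only cells, and 7 and 2 against Cd8ab cells. With total UMI scaling, 8.21% of genes were higher and 28.3% lower against Cd4 only cells, and 35.0% and 6.99% against Cd8ab cells. These cells differed between the groups, where 10.7% of all genes were called. All 7 helper genes were higher in the Runx1::Runx1t1 group under either scaling (median 0.93), with Tnfrsf4 at 247 and 255 CPM against 37.2 and 31.3 CPM (2.80, SE 0.09, adjusted p = 1.6e-06 by edgeR). Icos was at 131 and 162 CPM against 53.0 and 44.2 CPM (1.51, adjusted p = 0.00011 by edgeR), and Cd40lg at 65.0 and 75.1 CPM against 44.4 and 52.7 CPM (0.45, adjusted p = 0.030 by edgeR). Gata3, Runx1 and Tox were higher by 0.62, 0.49 and 0.57, while Crtam, Klrd1 and Prf1 were lower by -0.97, -0.84 and -0.55. Of the cytotoxic list 4 were higher and 6 lower. In Cd4 only cells, where 1.41% of all genes were called between the groups, 4 of 12 cytotoxic genes were higher in the Runx1::Runx1t1 group and 1 lower (Klrd1, -1.66, adjusted p = 0.045 by edgeR), with 9 at an unadjusted p under 0.05. Of 7 helper genes 1 was higher (Tnfrsf4, 1.10, adjusted p = 0.012 by edgeR) and 4 had an unadjusted p under 0.05. Of 18 lineage regulators 1 was higher and 1 lower, with 8 at an unadjusted p under 0.05, and total UMI scaling gave 0 higher and 1 lower. EdgeR called 0 of 12 TCR genes (4 at an unadjusted p under 0.05, 2 by DESeq2). In Cd8ab cells edgeR called 1 gene of the 4 lists, a cytotoxic gene. DESeq2 called 6 cytotoxic genes, 3 lineage regulators, 2 helper genes and 1 TCR gene there.

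Cd8a only cells were compared with Cd8ab cells, and cells called both with either lineage. Of all genes, edgeR called 16.6% between Cd8a only and Cd8ab cells. For cells called both it called 24.1% against Cd8ab cells and 3.54% against Cd4 only cells. Against Cd8ab cells, Cd8a only cells had 5 cytotoxic genes higher and 2 lower of 12, with Klrd1 higher by 0.67 (adjusted p = 0.0064 by edgeR). Lef1 was lower by -0.91 (adjusted p = 7e-05 by edgeR), and 10 of 18 regulators were not called. Cells called both had 6 of 7 helper genes higher than Cd8ab cells, with Cd40lg at 5.16 (SE 0.28, adjusted p = 6.4e-11 by edgeR), and 6 of 12 cytotoxic genes lower. Against Cd4 only cells edgeR and DESeq2 called 0 of 7 helper genes (5 at an unadjusted p under 0.05). Of 18 regulators 2 were called by edgeR, Satb1 (higher by 0.57) and Gata3 (lower by -0.40). Of the cytotoxic list 3 genes were higher, among them Crtam by 1.76 (adjusted p = 0.00029 by edgeR). With total UMI scaling 32.9% of genes were higher and 4.30% lower against Cd8ab cells, and 1.98% and 3.32% against Cd4 only cells, while for Cd8a only against Cd8ab cells they were 12.6% and 4.87%.

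Cells called both were read for signs of pairs of cells taken as 1 and of UMIs of the other lineage at background level. Of the 1173, 255 (21.7%) had 1 UMI of each lineage, and 234 (19.9%) had at least 2 of each. A second TRB chain, rare in single T cells, was found in 22.2% of them and in 5.74% to 8.40% of the other patterns. Before doublets were removed, Scrublet had marked 17.6% of cells called both and 2.45% to 4.81% of the others. Of the 234 cells with at least 2 UMIs of each lineage, 91 had exactly 1 TRA and 1 TRB chain. Over all pools, cells called both had a median of 6765 UMIs, between the 5198 of Cd4 only cells and the 7272 of Cd8ab cells. In the Runx1::Runx1t1 pools their medians were 6751 and 6575.5 UMIs, below the 8044 and 7160 of Cd8ab cells. In the control pools they were 7299 and 7065.5 UMIs, above the 6971 and 7052 of Cd8ab cells. In cells whose clonotype was Cd4, 10.5% had a Cd8a or Cd8b1 UMI, and in cells whose clonotype was Cd8, 2.26% had a Cd4 UMI. The part of doublets and of free RNA in the larger share of these cells in the Runx1::Runx1t1 group was not tested. With cells of exactly 1 TRA and 1 TRB chain the difference was 2.74 points, and 3.10 with all.

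Programs were held by cells with UMIs of at least 2 genes of a list at 2000 UMIs, none of which contained the 4 genes. A cell could hold several programs. The cytotoxic list held Gzma, Gzmb, Gzmk, Prf1, Nkg7, Ccl5, Ctsw and Klrd1, so a cell of this program need not have a Gzmb UMI. It was held by 25539 of the 35602 paired cells with at least 2000 UMIs. Near the limit lay many cells: between 27.5% (cytotoxic) and 90.2% (immature) of the cells of a program had exactly 2 of its genes. Cd8ab cells held the naive program, with genes such as Ccr7, in 50.3% and 37.1% of cells in the Runx1::Runx1t1 pools and 63.9% and 52.4% in the control pools. They held the cytotoxic program in 78.8% and 86.4% against 64.2% and 72.5%. Cd4 only cells held the naive program less often, in 18.2%, 21.1%, 27% and 26.9%, and the cytotoxic program in 50.3% and 57.2% against 32.2% and 36.3%. The difference between the patterns was 27.6 ± 9.03 points (SD over 4 pools) for naive and 31.5 ± 3.52 for cytotoxic genes. The regulatory list held Foxp3, Il2ra, Ikzf2, Ctla4, Lrrc32 and Ikzf4, so a cell of this program need not have a Foxp3 UMI. The regulatory program was held by 25%, 22.5%, 28.4% and 22.1% of Cd4 only cells and by 1.82%, 6.89%, 0.516% and 0.446% of Cd8ab cells, a difference of -22.1 ± 5.07 points. All 4 pools had the same sign in each, with p = 0.125 in the two-sided exact sign-flip test, the smallest that 4 pools allow (adjusted 0.214 over 72 differences).

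The remaining patterns differed in the programs they held. Natural killer receptors, such as Klrb1c and Klra7, were held by 43.0% and 19.1% of Cd8a only cells in the Runx1::Runx1t1 pools and 61.1% and 57.3% in the control pools, against 2.37% to 7.38% of Cd8ab cells (difference 39.5 ± 16.7 points, same sign in 4 of 4 pools, exact sign-flip p = 0.125, adjusted 0.214). Nearly all Cd8a only cells, 91.5% to 96.5%, held the cytotoxic program. Cells with no co-receptor UMI held the cytotoxic program in 63.7% and 59.3% in the Runx1::Runx1t1 pools against 85.8% and 82.6% in the control pools, and natural killer receptors in 25.4% and 17.9% against 56.2% and 53.3%. They were invariant NKT cells in 17.6%, 13.2%, 15.7% and 15.2%. The same receptor was found in 4.85%, 3.52%, 9.51% and 12% of Cd4 only cells and in 0.083% to 0.424% of Cd8ab cells. Cells called both held the cytotoxic program in 56.0%, 62.3%, 45.5% and 48.1%, in each pool between Cd4 only and Cd8ab cells. Their naive share also lay between the shares of these patterns in each pool. The regulatory program was held by 26.8%, 24%, 24.2% and 20% of cells called both, close to Cd4 only cells. Cd8b1 only cells lay near Cd8ab cells, with the naive program in 41.2% to 55.5% and the cytotoxic program in 68.6% to 74.2%, but with natural killer receptors in 8.10% to 20.3%.

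Between the groups, the programs also differed within the patterns, although none of 72 such differences could pass (smallest adjusted p = 0.6 by the two-sided exact permutation test). Cells with no co-receptor UMI held natural killer receptors less often in the Runx1::Runx1t1 group (difference -33.1 points) and the regulatory program more often, in 20.9% and 23.7% against 5.93% and 7.43%, without overlap of the pools. Inhibitory receptor genes such as Pdcd1 and Lag3 were held by 11.5% and 37.9% of Cd8ab cells against 1.88% and 2.38%. Pool 2 of the Runx1::Runx1t1 group stood above the other 3, and the difference of 22.5 points was 15 without the clonotype of 1106 cells and 3.26 with each clonotype counted once. The cytotoxic program of Cd4 only cells differed by 19.5 points, and by 3.85 with each clonotype counted once. The naive program of Cd8ab cells differed by -14.4 points and by 0.803 with each clonotype counted once. These 3 differences were thus small or reversed once clonotype size was taken out, while that of natural killer receptors in cells with no co-receptor UMI was -31.6 points with each clonotype counted once.

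**Figure D3:**
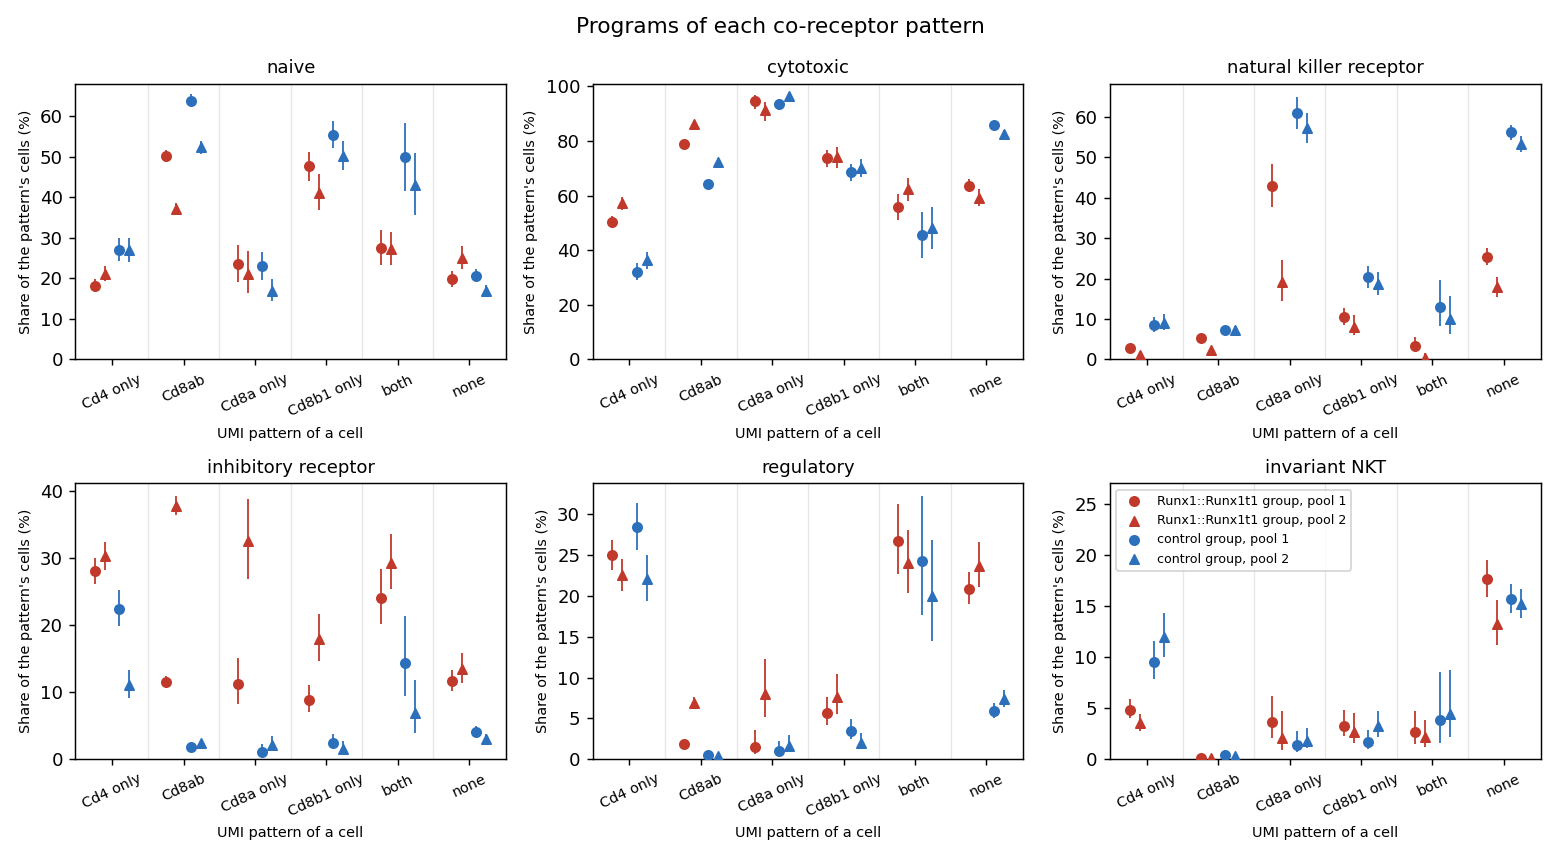
Percent of the cells of each co-receptor pattern that held a gene program, at 2000 UMIs per cell (invariant NKT: by TCR), 1 point per pool with its 95% Wilson interval. By the mean over pools, regulatory genes were most frequent in Cd4 only cells and cells called both. In the Runx1::Runx1t1 pools, cells with no co-receptor UMI came close to these. Natural killer receptors were most frequent in Cd8a only cells and cells with no co-receptor UMI, and invariant NKT receptors in cells with no co-receptor UMI.

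Read the other way, most invariant NKT cells had no co-receptor UMI. Of 1740 cells with a TRAV11 and TRAJ18 chain, 65.4%, 55.7%, 74.9% and 69.9% had no co-receptor UMI and on average 22.3% were Cd4 only. The TRA CDR3 of these cells is nearly fixed, and the 2 most frequent sequences, which differ in 1 base (C12G, from the first to the second, counted from 1 at the 5′ end and set in capitals), are shown because they mark the cells independently of Cd4 and Cd8.
Invariant TRA CDR3, first: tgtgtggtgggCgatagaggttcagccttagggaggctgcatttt
Invariant TRA CDR3, second: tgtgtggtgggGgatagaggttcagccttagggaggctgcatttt
Of the 1654 cells with this pairing in their leading TRA chain, 597 carried the first and 488 the second, with 591 and 461 different TRB CDR3. The first had 72.2% of its cells without a co-receptor UMI and 18.6% Cd4 only, the second 68.0% and 23.2%. Regulatory program cells (3186) were Cd4 only in 47.7%, 36.6%, 53.5% and 42.3% and without a co-receptor UMI in 30.9%, 19.1%, 29.4% and 40.5%. Pool 2 of the Runx1::Runx1t1 group stood apart here, with 29.4% of regulatory program cells being Cd8ab against 3.42% to 7.17% in the other pools. Cells with natural killer receptors (5808) had no co-receptor UMI in 44.2%, 42.5%, 61.8% and 58.0%, and type 17 cells (410), which held genes of interleukin 17 producing T cells, in 57.6% on average.

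Over programs, the 4 genes took different orders. Cd4 was highest in follicular helper program cells (mean 462 CPM over pools, 9 to 29 cells each), followed by regulatory (208 CPM) and inhibitory receptor cells (204 CPM), which overlapped each other. It was lowest in natural killer receptor cells (10.9 CPM). Cd8b1 was highest in naive cells (716 CPM), apart from the next, and had its lowest mean in invariant NKT cells (32.3 CPM), as did Cd8a (14.6 CPM). Single pools went lower in follicular helper program cells, where the 29 and 9 cells of the control pools had 0 UMIs of Cd8a and 1 and 0 of Cd8b1, and the Cd8a ranges of these cells and invariant NKT cells overlapped. Zbtb7b had its highest mean in follicular helper program cells (57.4 CPM), but there it rested on 3, 3, 11 and 7 UMIs, at 22.2, 16, 71.3 and 120 CPM. Invariant NKT cells followed at 29.8, 37.5, 39.3 and 45.3 CPM, and type 17 cells at 31.3, 28.0, 51.8 and 37.5 CPM. Regulatory program cells had 27.2, 24.1, 37.4 and 29.9 CPM, and naive cells had the lowest mean, at 3.71, 6.57, 4.85 and 4.88 CPM. Neighbours in the Zbtb7b order overlapped, except for natural killer receptor (10.9 CPM) and cytotoxic cells (8.52 CPM). Cd8b1 and Cd8a did not follow each other exactly. The Cd8b1 share of Cd8a and Cd8b1 UMIs in Cd8ab cells was 71.5%, 69.7%, 71.7% and 72.0% with the naive program and 61.2%, 54.5%, 67.6% and 64.9% with inhibitory receptors.

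**Figure D4:**
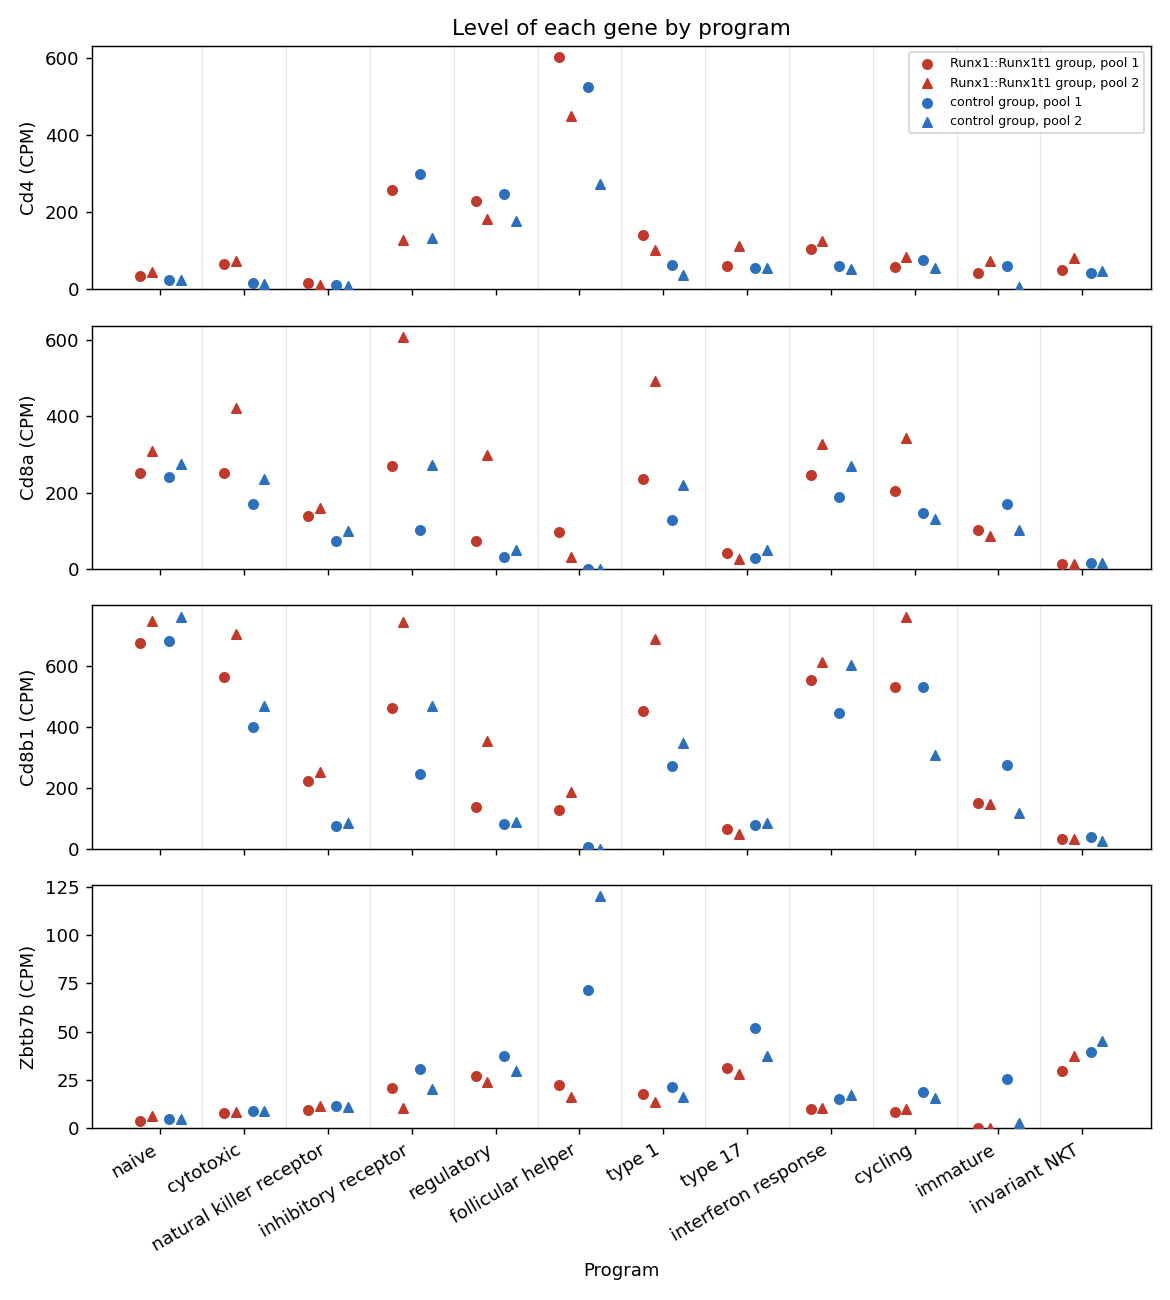
Levels of Cd4, Cd8a, Cd8b1 and Zbtb7b in CPM in the summed cells of each program, 1 point per pool. Zbtb7b was at 29.8 to 45.3 CPM in invariant NKT cells and 3.71 to 6.57 CPM in naive cells, and both Cd8 genes had their lowest mean over pools in invariant NKT cells (14.6 and 32.3 CPM).

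Within cells with no co-receptor UMI, the share with a Zbtb7b UMI was compared between cells with and without each program. At 2000 UMIs it was present in 7.31% of invariant NKT cells and 3.99% of the others, in 7.26% of regulatory program cells and 4.07% of the others, and in 9.95% of type 17 cells and 4.36% of the others. It was present in 3.06% of cells with natural killer receptors and 5.40% of the others, and in 3.81% of cells with the cytotoxic program and 7.03% of the others. The sign was the same in 4 of 4 pools for each, with p = 0.125 in the two-sided exact sign-flip test (adjusted 0.434 over 33 differences), so none passed. In Cd4 only cells the cytotoxic program made little difference, with 7.10% against 7.25%.

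Clonotypes gave a measure of how often a co-receptor pattern missed the lineage. Among clonotypes with at least 3 cells that had a co-receptor UMI, 42 of 6153 cells in 539 clonotypes (0.683%, 95% Wilson interval 0.505% to 0.921%) carried UMIs of the other lineage alone than most of the rest of their clonotype. These were 21 of 1918 and 20 of 3200 cells in the Runx1::Runx1t1 pools and 1 of 391 and 0 of 644 in the control group. Intervals cover counting error only. Each cell was then read against the rest of its clonotype. Of 2085 cells whose clonotype was Cd4, 76.3% were Cd4 only, 13.2% had no co-receptor UMI, 8.92% were called both and 1.29% were Cd8b1 only. By pool, 75.6%, 76.3%, 85.1% and 67.0% were Cd4 only. Of 4465 cells whose clonotype was Cd8, 83.3% were Cd8ab, 7.30% Cd8b1 only, 4.43% Cd8a only, 2.73% without a co-receptor UMI, 2.06% both and 0.202% Cd4 only. With the cells of all pools counted together, a larger share had no co-receptor UMI in Cd4 than in Cd8 clonotypes, a difference that was not tested over pools.

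Zbtb7b was also read in the cells of these clonotypes that had no co-receptor UMI, with all pools counted together and no test over pools. Of 275 cells with no co-receptor UMI in Cd4 clonotypes 9.82% had a Zbtb7b UMI (95% Wilson interval 6.84% to 13.9%), against 1.64% of 122 in Cd8 clonotypes (0.451% to 5.78%). Most cells of either kind had no Zbtb7b UMI, so that it did not sort single cells. The intervals cover counting error only. For comparison, 15.5% of Cd4 only cells of Cd4 clonotypes and 2.31% of Cd8ab cells of Cd8 clonotypes had one. In the Cd4 clonotype of 136 cells shown above, 18 cells had a Zbtb7b UMI, in the Cd8 clonotype of 1106 cells 23 had one, and in the clonotype of 40 cells without co-receptor UMIs 0 had one.

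**Figure D5:**
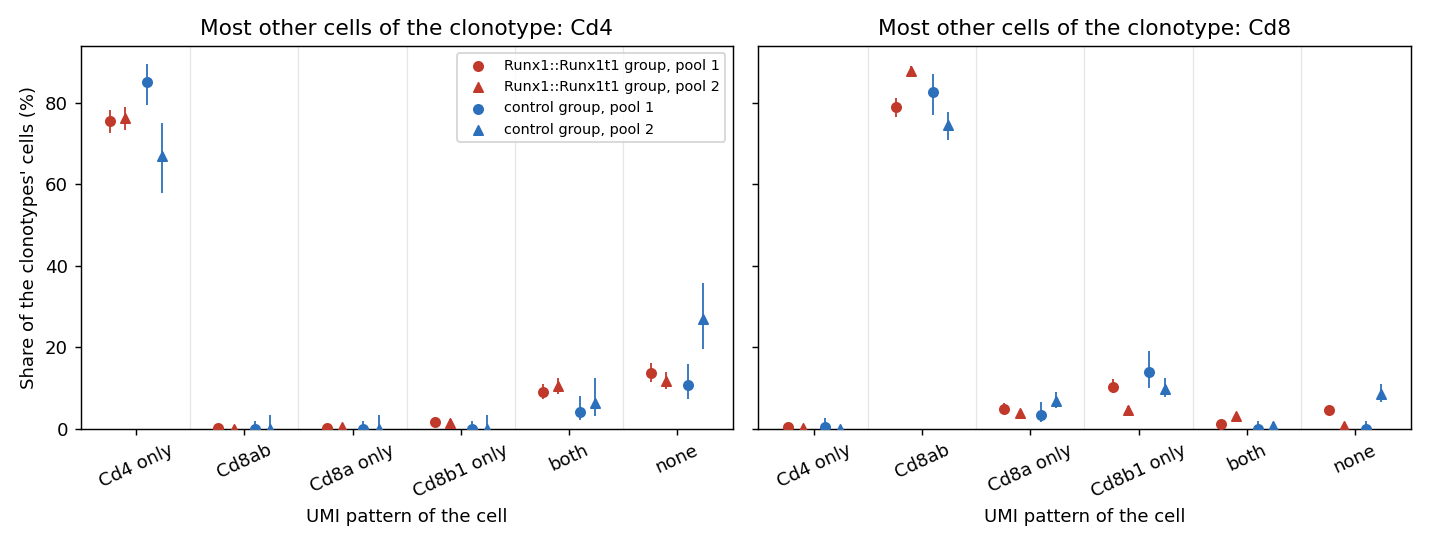
Co-receptor patterns of cells whose clonotype was otherwise Cd4 or Cd8, in percent by pool with 95% Wilson intervals. Cells of Cd4 clonotypes were Cd4 only in 67.0% to 85.1%, and cells of Cd8 clonotypes were Cd8ab in 74.4% to 87.8%, with 0.202% Cd4 only over the pools.

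The genes whose level over programs and pools was most like each of the 4 were found by Pearson's r of log2(CPM + 1) over 39 sums, as a description. The sums share libraries and, in part, cells. Cd8a and Cd8b1 had an r of 0.94 with each other, Cd4 and Zbtb7b 0.57, Cd8b1 and Zbtb7b -0.74, and Cd4 and Cd8a -0.31. Tnfrsf4, Sdcbp2 and Hif1a were most like Cd4 (each 0.94). Gm44174, Lamb3 and Nrarp were most like Cd8a (0.88, 0.86 and 0.82), and Gm44174, Dapl1 and Gm17018 most like Cd8b1 (0.88, 0.82 and 0.75). Gm44174 is a long noncoding RNA (chr6:71353035-71373284, plus strand) that lies between Cd8b1 and Cd8a and ends just before the latter. Smpdl3a, Runx1 and Dusp1 were most like Zbtb7b (0.90, 0.88 and 0.88). With log2(CPM + 10), Nrarp, Gm17018 and Dusp1 fell to ranks 8, 7 and 10.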

How the data were processed

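The authors made the deposited UMI counts with Cell Ranger 6.1.2 on GRCm38, per the labels and the methods, without normalization, for called cells. The annotation release is not given in the sources used here. The deposited contig tables hold the count of UMIs and the CDR3 of each TRA and TRB chain.

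Cells with fewer than 200 genes or over 15% mitochondrial UMIs were left out. Scrublet (scanpy 1.11.5, expected doublets 5%) removed 4.22% to 5.40% of barcodes per library. In 3 of 4 libraries its own threshold marked less than 0.5%, and the top 5% by score was taken instead. Cells with at least 1 TRA and 1 TRB chain were used, 8362 to 9769 per pool. At 2000 UMIs, shallower cells were left out. UMI counts of cells of 1 pattern were summed per pool (at least 20 cells) and tested with edgeR 4.0.16 (quasi-likelihood, TMM, filterByExpr, Benjamini-Hochberg adjustment over all genes tested at 0.05), between groups without a block and between patterns with the pool as a block. Cd4, Cd8a and Cd8b1 define the patterns and were not tested between them. DESeq2 1.42.0 in R 4.3.3 was an alternative. On simulated counts for Cd4 only against Cd8ab cells, 46 of 50 genes at fold 2 and 50 of 50 at fold 4 were recovered, and for the interaction 17 of 50 at fold 2 and 50 of 50 at fold 4. The simulation gave all genes the same fixed dispersion, had no differences between pools or patterns apart from the changed genes, and changed only well-covered genes. These rates can therefore overstate the power in the real pools. Shares were compared by two-sided exact permutation tests over pools (scipy 1.17.1). The 4 genes, the gene lists and the programs were chosen with earlier results of these data known. Named genes were the 4, up to 3 with the largest rise and 3 with the largest fall among called genes of each list between Cd4 only and Cd8ab cells, and for each of the 4 the 3 genes of highest r, computed over sums per program and pool with TCR segments, mitochondrial genes and the 4 themselves left out. Some genes of these lists are not reported here. Intervals on shares are 95% Wilson intervals and cover counting error only. Nothing in the labels says more of how the mice of a pool were chosen. P-values between groups measure the spread between pools. EdgeR's p-values between patterns come from 1 fit of the sums of all patterns in all pools, which share an estimate of the spread. The pool block takes out the spread between pools there, so these p-values measure what is left within pools.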

Additional observations from a re-analysis of the deposited data

How the results depend on the processing

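Of the differences between groups, the share of Cd8a only cells turned to 0.158 points at 2000 UMIs and the naive share of Cd8ab cells to 0.803 with each clonotype counted once. The regulatory share of Cd4 only cells (-1.51 points) turned to 2.11 with at least 3 genes and 4.43 with each clonotype counted once, and ranged from -4.68 to 1.66 without 1 pool. The other pattern shares kept their direction under every alternative run.

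Counts of called genes between groups, by edgeR, moved most. In Cd4 only cells (159) they were 440 for genes with at least 1 UMI and 30 to 590 without 1 pool. In Cd8ab cells (2) they were 588 with DESeq2, 970 with at least 1 UMI, 5 with total UMI scaling and 0 to 1615 without 1 pool, the 0 by edgeR without control pool 1, where 1017 passed at an unadjusted p under 0.05. In cells with no co-receptor UMI (1250) they were 801 with DESeq2 and 808 to 1083 without 1 pool. In all paired cells (361) they were 1255 with DESeq2, 673 with total UMI scaling and 6 to 1991 without 1 pool.

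Replicate numbers only name the pools: with 2 pairs, deviations of same-numbered pools correlated at 0.171 to 0.263 over genes. With the number as a replicate block, 501, 496, 1513 and 731 genes were called in Cd4 only cells, Cd8ab cells, cells with no co-receptor UMI and all paired cells. The block left pattern shares as they were, since pairs are of equal number.

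Between patterns, the counts without the pool block were 777 of 1830 for Cd8a only against Cd8ab cells (787 to 1998 without 1 pool), 1699 of 2661 for both against Cd8ab cells (1614 to 2207, and 4101 with total UMI scaling), 48 of 391 for both against Cd4 only cells (93 to 355, and 625 with doublets kept), 1580 of 3021 for cells with no co-receptor UMI against Cd4 only cells (1925 to 3043) and 2182 of 3822 for them against Cd8ab cells (2484 to 3850). The discordance within clonotypes was 0.496% to 0.762% without 1 pool. Log2 fold changes that turned were Cd8b1 in Cd8ab cells (0.0038) and Zbtb7b in all paired cells (0.048) between groups and Lck (0.066) between Cd4 only and Cd8ab cells, with total UMI scaling. Without 1 pool, Zbtb7b in all paired cells ranged from -0.072 to 0.045 and Cd8a in Cd8ab cells from -0.020 to 0.38. The cause of these changes was not tested. Removal of the clonotype of 1106 cells and total UMI scaling were chosen after seeing the data. With 2 pools per group and sparse Zbtb7b counts, small differences were not detectable.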
